A study of Homo sapiens with 19 samples.

Results

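The nuclear wash and the whole cell were compared in 8 RNA-seq libraries, 4 of each, out of 19 libraries in the series. The members are all the rRNA-depleted nuclear wash libraries and all the whole-cell libraries, taken by their labels. Every library came from K562, an established human erythroleukaemia cell line, labelled as given no treatment. The remaining libraries are 4 of cytoplasm, 4 of nucleus and 3 of nuclear wash made without rRNA depletion. Those of cytoplasm and nucleus entered the main fit, so they shared in its filter, scaling and estimate of spread. Their values are otherwise given only as levels beside a result, as are those of the undepleted wash. The labels name the nuclear wash without saying how it was prepared, number the replicates 1 to 4, and leave unsaid whether each replicate was its own culture. The p-values therefore describe only how far these libraries vary, part of which may be technical. The column names carry a prefix 1 for replicates 1 and 2 and a prefix 2 for replicates 3 and 4, and the labels do not say what the prefix stands for.

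Washing isolated nuclei can release RNA held at or near the outside of the nucleus. Whether the RNA of this wash came from there was not tested. The outer nuclear membrane is continuous with the endoplasmic reticulum, so ribosomes translating secreted and membrane proteins lie on both. An mRNA reaches the reticulum when its ribosome exposes a hydrophobic signal sequence or membrane segment, which the signal recognition particle binds and brings to the translocon. Whole-cell RNA holds this population together with free cytosolic mRNA, mitochondrial RNA and the unspliced and noncoding RNA of the nucleus.

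Libraries held 2616547 to 6115517 exon counts in the whole cell and 3377669 to 7165198 in the wash. Levels are given in CPM, counts scaled to library size with TMM factors (an adjustment that sets the typical gene to no change), as mean ± SD over the 4 libraries of a group. Fold changes are log2 of wash over whole cell, so they compare a gene with the typical gene, and say nothing of absolute RNA amounts. The yeast spike-in transcripts took 0.192 to 0.232% of the exon and spike counts in the whole cell and 3.14 to 4.14% in the wash, and with library sizes set by them all 15923 genes tested were lower in the wash, with a median of -4.51. The spike-in dose per cell or per fraction is not given in the sources used here, so every "higher" below is a higher share of the library. Mitochondrial rRNA took 16.3 to 17.8% of exon counts in the whole cell and 17.8 to 26.3% in the wash, and 31.4 to 45.1% in the undepleted wash.

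The cell line label was checked against its markers. All 13 K562 markers passed the filter on low counts, and their summed level was 3570 to 4407 CPM in the whole cell and 4424 to 5190 in the wash. The erythroid factor gene GATA1 was at 78.4 ± 8.55 and 97.9 ± 12.4 CPM (adjusted p = 0.0611, and 0.0361 with the replicate numbers as a block), and the fetal globin gene HBG1 at 59.7 ± 10.8 and 63.4 ± 6.88 CPM (adjusted p = 0.684). Among markers of other lineages, 4 of 14 lymphoid and myeloid, 5 of 10 epithelial and 3 of 14 fibroblast and endothelial genes passed the filter. Their summed levels were higher in the wash, at 241.9 to 303.9 against 100.8 to 171.5 CPM, 741.5 to 1186 against 439.0 to 525.4 CPM, and 107.2 to 146.5 against 41.1 to 51.8 CPM. CD79B, MPO, KRT14, LUM, CDH5 and KDR had 0 counts in all 8 libraries. Of those that passed, 3, 5 and 3 were called higher in the wash. They include the secreted proteins LYZ (lysozyme) and COL1A2 (a collagen chain) and the surface protein EPCAM (an adhesion molecule), which rose by 1.91, 2.03 and 1.47 on the log2 scale, and also keratins, which are not secreted. A part of other cells in these levels was not tested.

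The wash held less intronic RNA than the whole cell and a different balance of RNA classes. Intronic counts, the gene-body counts beyond the exon counts outside mitochondrial genes, were 46.8, 52.4, 51.8 and 44.8% of gene-body counts in whole-cell replicates 1 to 4 and 27.2, 30.2, 23.5 and 23.2% in wash replicates 1 to 4. No wash library reached a whole-cell library, and the means were 48.9% ± 3.76 and 26.0% ± 3.34. The undepleted wash was at 21.1% ± 2.82 (n = 3), the cytoplasm at 14.1% ± 1.42 and the nucleus at 71.8% ± 2.21. In 5.26% of genes with at least 50 exon counts, gene-body counts fell below exon counts, so the subtraction is not exact.

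Of exon counts outside rRNA genes, the mRNAs of 388 genes for reticulum, lysosome, surface and other membrane-pathway proteins took 3.08, 3.08, 3.14 and 3.07% in the whole-cell libraries and 5.70, 5.89, 6.60 and 6.05% in the wash libraries. The 13 mitochondrially encoded mRNAs took 4.23% ± 0.36 in the whole cell and 7.82% ± 0.942 in the wash. The other classes went down. Cytosolic ribosomal protein mRNAs went from 3.18% ± 0.211 to 2.33% ± 0.271, zinc finger mRNAs from 0.42% ± 0.0218 to 0.306% ± 0.0369, and nuclear long noncoding RNAs from 2.99% ± 0.224 to 1.43% ± 0.868. The last class differed with the prefix, at 2.4 and 1.91% in wash replicates 1 and 2 and 0.71 and 0.679% in replicates 3 and 4. Each of the 6 shares gave p = 0.0286 (exact permutation, two-sided), and 0.0286 after adjustment over the 6. No smaller p is possible with 4 libraries per group. The gene lists behind the 5 shares other than the intronic share were chosen with earlier results of these data known. The p-values of those 5 shares are therefore not independent support. With gene-body counts, whose totals include the intronic counts, none of the 5 shares other than the intronic share passed by exact permutation test. The ribosomal protein share was higher in the wash by 0.0994 points (adjusted p = 0.686). The reticulum and membrane share was still higher by 2.453 points and the mitochondrial mRNA share by 3.711 points (adjusted p = 0.0714 each). With no p below 0.0286, a share passes the adjustment only if other shares lie near that floor too. The result therefore does not show that these differences were lost.

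**Figure D1:**
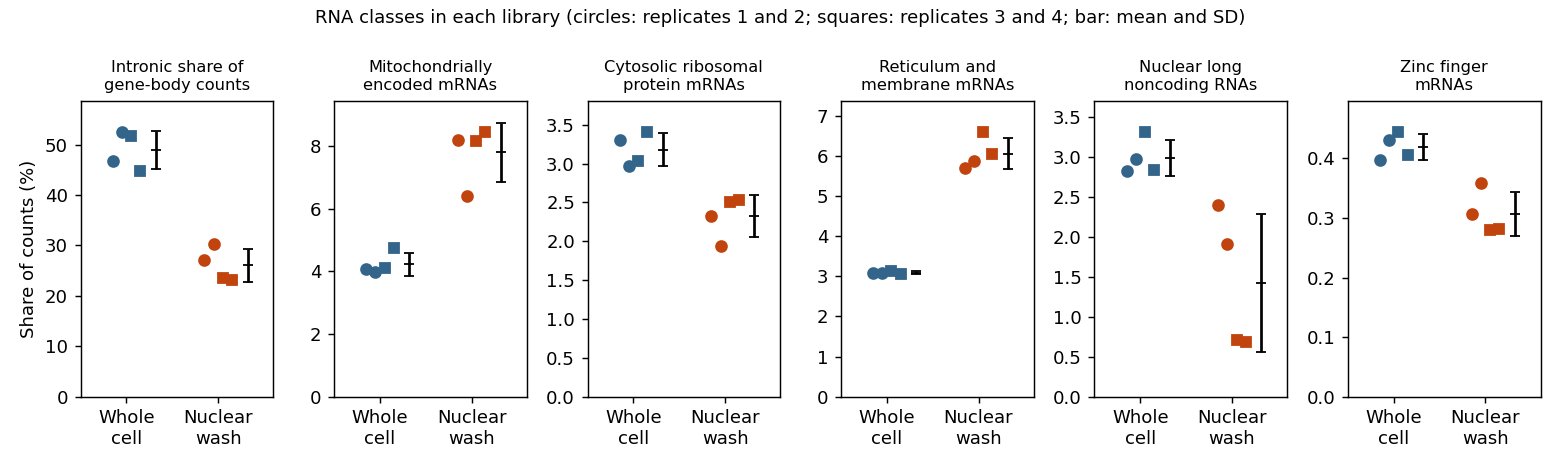
Share of counts (y axis, percent, from 0) of 6 RNA classes in each of the 4 whole-cell and 4 nuclear wash libraries, with circles for replicates 1 and 2, squares for replicates 3 and 4, and a bar for mean and SD. The libraries of both groups did not overlap in any class, with the reticulum and membrane mRNAs at 3.07 to 3.14% in the whole cell and 5.70 to 6.60% in the wash.

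Across all genes, 15940 passed the filter on low counts, and 2335 were called higher in the wash and 3142 lower at an adjusted p under 0.05. The background against which each group is read is therefore 14.6% called higher and 19.7% called lower, and the median log2 fold change of all tested genes was -0.10. A change of at least 1 on the log2 scale was reached by 751 of the higher genes and 1734 of the lower genes. The filter used all 16 depleted libraries, so some genes passed through their level in the nucleus. With only the 8 libraries of the comparison, 13620 genes were tested and 2209 were higher and 1833 lower. Of the lower genes in the main fit, 82.6% had a higher mean CPM in the nucleus than in the cytoplasm. This was so for 50.7% of all tested genes and 32.5% of the higher genes. These parts were not computed with only the 8 libraries.

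Messenger RNAs for chaperones and folding enzymes of the endoplasmic reticulum had the largest share of higher members, 91.3%, among the lists with more than 5 tested genes. The starts of the coding sequences of mRNAs for proteins that enter the reticulum are shown because the hydrophobic stretch that directs the ribosome to the reticulum is encoded there. The first 75 bases of the coding sequence of 4 such mRNAs and of 2 mRNAs for proteins of the cytosol and nucleus follow, from the GENCODE 29 transcripts on GRCh38. Capitals mark the 27 bases that encode the most hydrophobic 9 residues between residues 2 and 35 of the protein (Kyte-Doolittle scale).
HSPA5: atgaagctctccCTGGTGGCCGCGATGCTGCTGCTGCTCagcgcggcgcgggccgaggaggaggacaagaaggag
PDIA4: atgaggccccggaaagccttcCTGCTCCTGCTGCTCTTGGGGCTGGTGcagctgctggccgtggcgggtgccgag
CALR: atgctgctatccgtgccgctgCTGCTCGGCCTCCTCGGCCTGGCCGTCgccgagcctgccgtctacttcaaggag
LAMP2: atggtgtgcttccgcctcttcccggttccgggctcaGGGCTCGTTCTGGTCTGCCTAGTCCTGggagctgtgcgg
ACTB: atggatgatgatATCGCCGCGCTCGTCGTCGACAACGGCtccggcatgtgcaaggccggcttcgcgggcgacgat
ZNF33B: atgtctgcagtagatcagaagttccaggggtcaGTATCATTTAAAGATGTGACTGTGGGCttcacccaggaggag
The mean hydropathy of the 9 residues was 3.19 for HSPA5, 3.38 for PDIA4, 2.69 for CALR and 3.32 for LAMP2, and 1.43 for ACTB and 0.678 for ZNF33B. The genes lie at chr9:125234853-125241330 (HSPA5, minus strand), chr7:149003062-149028641 (PDIA4, minus), chr19:12938578-12944489 (CALR, plus), chrX:120427827-120469365 (LAMP2, minus), chr7:5527147-5563784 (ACTB, minus) and chr10:42574185-42638568 (ZNF33B, minus), and the bases shown are exonic.

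Of 46 tested chaperones and folding enzymes of the reticulum lumen, 42 were higher in the wash and 0 lower (1 lower with the replicate numbers as a block), with a median of 1.25. PDIA4, a disulphide isomerase, was at 190.3, 166.0, 149.1 and 142.8 CPM in the whole-cell libraries and 673.4, 546.1, 648.6 and 576.0 CPM in the wash libraries (log2 fold change 1.92, SE 0.12, adjusted p = 7.8e-10). CALR, the lumenal calcium-binding lectin calreticulin, was at 785.7, 624.6, 557.0 and 654.2 CPM and at 2885, 2306, 2993 and 2523 CPM (2.03, SE 0.134, adjusted p = 1.68e-09). HSPA5, the HSP70 of the lumen, was at 415.5, 360.4, 433.1 and 448.5 CPM and at 1380, 998.4, 1469 and 1371 CPM (1.65, SE 0.161, adjusted p = 1.66e-07). In all 3 the lowest wash library lay above the highest whole-cell library. In the cytoplasm and nucleus CALR was at 713.2 and 440.7 CPM and HSPA5 at 315.3 and 439.2 CPM, below the wash, and in the undepleted wash they were at 2602 and 1236 CPM. Many named genes, CALR, ACTB and DIAPH1 among them, overlap another annotated gene, and whether the counting used strand is not given in the sources used here, so a part of their reads may belong to the neighbour.

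The machinery that moves and modifies nascent chains was higher less uniformly. Of 44 translocon, oligosaccharyltransferase and signal peptidase genes, 27 were higher and 2 lower, with a median of 0.66. MAGT1 and RPN2, both of the oligosaccharyltransferase, rose by 1.78 (SE 0.127) and 1.69 (SE 0.103), and RPN2 was at 158.1, 167.4, 157.0 and 156.4 CPM in the whole cell and 498.1, 497.1, 573.3 and 499.9 CPM in the wash. EMC2, a subunit of the membrane insertion complex that itself lies in the cytosol, fell by 0.73 (SE 0.19, adjusted p = 0.00506), but with gene-body counts by 0.40, which did not pass (adjusted p = 0.067). Of 63 enzymes of GPI anchor and glycan assembly, 40 were higher and 3 lower, with a median of 0.65. GANAB, the glucosidase that trims new glycans, rose by 1.67 (SE 0.161), while XYLT1, a xylosyltransferase of the Golgi that overlaps 6 other annotated genes, was lower at 7.10 ± 1.3 against 20.7 ± 7.07 CPM.

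Lysosomal and cell-surface proteins are made on the same membrane, and their mRNAs were higher too. Of 53 lysosomal genes, 45 were higher and 1 lower, 2 with the replicate block (median 1.14). LAMP2, a protein of the lysosomal membrane, was at 57.3, 68.6, 83.2 and 54.1 CPM in the whole cell and 204.6, 266.6, 308.3 and 246.7 CPM in the wash (1.96, SE 0.158, adjusted p = 1.37e-08), and its groups did not overlap. Of 66 plasma membrane receptors and adhesion proteins, 49 were higher and 1 lower (median 0.91), with APLP2, a relative of the amyloid precursor, at 358.9 ± 31 and 1275 ± 191 CPM and the thrombin receptor F2R at 22.5 ± 2.54 and 78.3 ± 8.07 CPM. Of 78 solute carriers outside the mitochondrial family, 58 were higher and 2 lower (median 0.75). The glucose transporters SLC2A3 and SLC2A1 rose by 1.85 (SE 0.167) and 1.71 (SE 0.127), and the amino acid transporter SLC36A4, at 9.76 ± 1.07 and 5.66 ± 0.942 CPM, fell by 0.76 (SE 0.196), a call lost within prefix 1 (adjusted p = 0.0575).

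The cholesterol synthesis pathway has enzymes in the reticulum membrane and in the cytosol, so both places can be read within the pathway. Of 18 genes for membrane enzymes, 14 were higher and 0 lower (median 0.78). Of 8 genes for cytosolic ones, 1 was higher and 1 lower, or 3 and 2 with the replicate block (median 0.01). With gene-body counts, 5 of the 8 cytosolic ones were higher and 1 lower (median 0.40). In that setting 13 of 17 membrane ones were higher and 1 lower (median 1.02), when the median of all genes was 0.04. SOAT1, counted with the membrane enzymes, esterifies cholesterol and does not make it. SOAT1 was at 41.2, 47.8, 45.65 and 37.3 CPM in the whole cell and 123.0, 135.3, 138.7 and 116.6 CPM in the wash. DHCR7, the last reductase of synthesis, was at 66.5 ± 11 and 181.6 ± 33.3 CPM. HMGCS1, the cytosolic synthase, was at 332.2 ± 60.9 and 516.5 ± 91.5 CPM and its groups overlapped (0.64, SE 0.153, adjusted p = 0.00294), and it did not pass with no composition factor (0.33, adjusted p = 0.095). MVK, the cytosolic kinase, fell by 0.46 (SE 0.165, adjusted p = 0.0358), a call that was lost without any of wash replicates 1, 2 and 3 or whole-cell replicates 1, 3 and 4 (adjusted p 0.0516 to 0.108). The call of MVK was also lost with DESeq2 (adjusted p = 0.0533). By edgeR it was lost with no low-count filter (0.225), only the 8 libraries (0.0654) and within prefix 2 (0.22). Vesicle coat and tethering proteins, which work on membranes from the cytosolic side, gave 15 higher and 8 lower of 51 (median 0.14). ARCN1, a COPI coat subunit, rose by 0.71 (SE 0.1), and GOLGA4, a long Golgi tether, fell by 1.87 (SE 0.334).

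**Figure D2:**
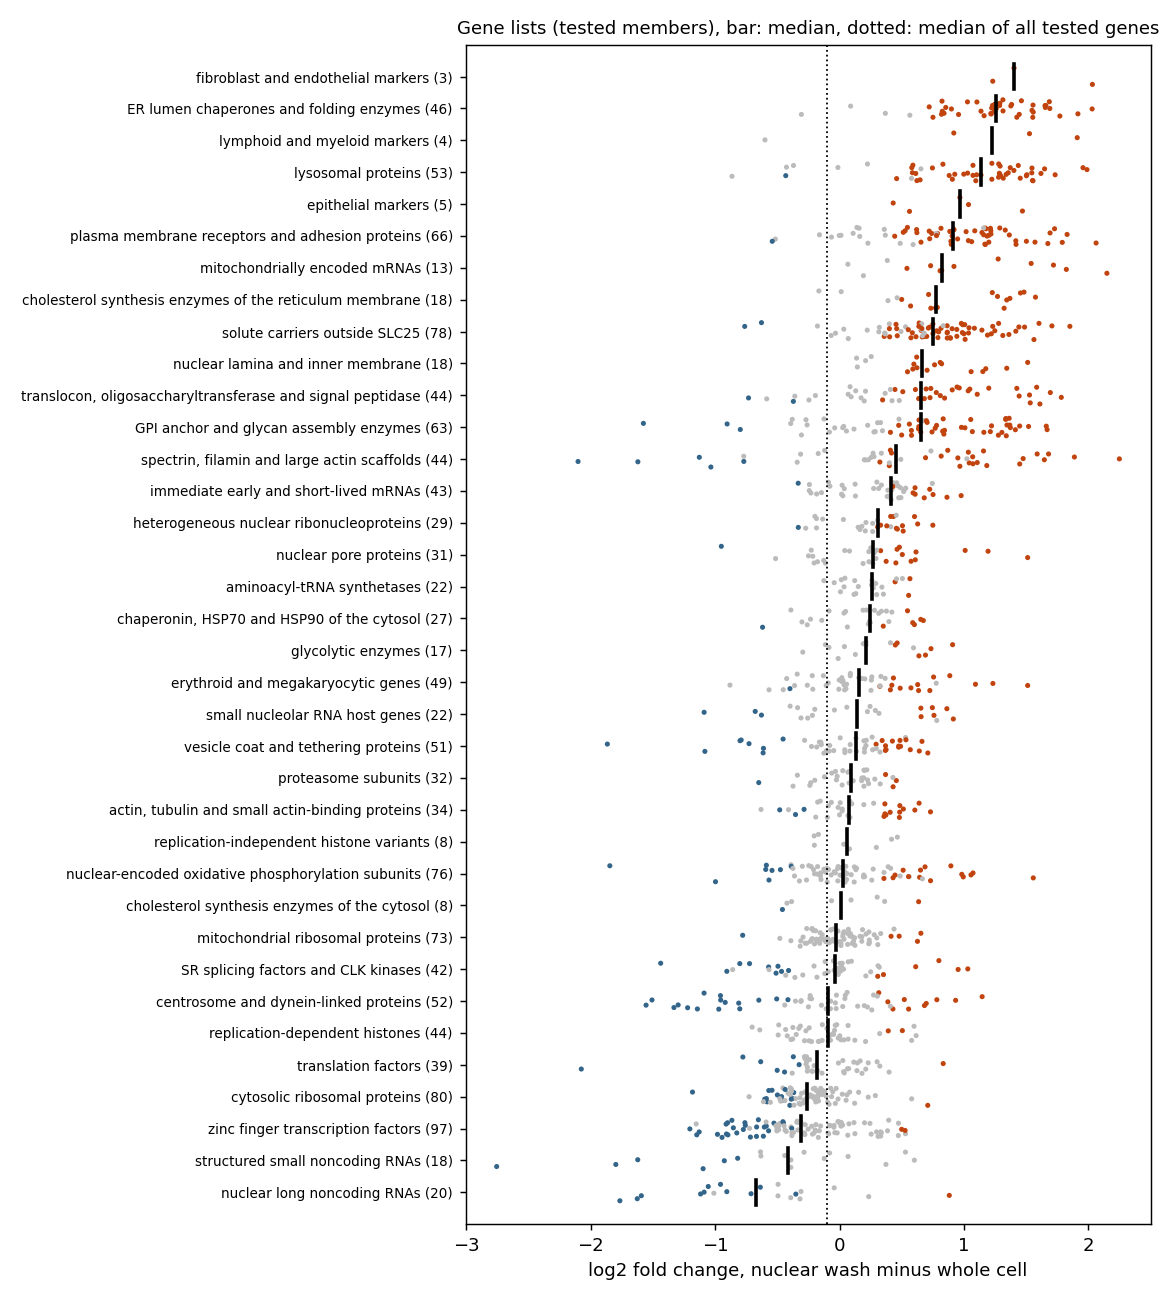
Log2 fold change of nuclear wash over whole cell (x axis) for the tested members of 36 gene lists, ordered by median, with orange for members called higher, blue for members called lower and grey for the rest. The black bar is the list's median and the dotted line the median of all tested genes, -0.10; the lists of reticulum, lysosomal and surface proteins have medians from 0.65 to 1.25.

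The same difference was read from the proteins themselves, without the lists. For 11241 tested coding genes of the nuclear genome with a complete coding sequence in GENCODE 29, the highest mean hydropathy over any 19 residues, about the length that spans a membrane, was computed from the translated sequence. Of 1621 genes with a highest value under 0.8, 6.29% were called higher and 17.1% lower, and of 1182 genes with a value of at least 2.4, 43.5% were called higher and 11.9% lower. Among all 11241 genes the shares were 18.2% and 15.4%. The 1466 genes with both a 19-residue window of at least 1.6 and an N-terminal 9-residue window of at least 2 had a median log2 fold change of 0.51, and 47.7% of them were higher. The 7144 genes with neither had a median of -0.07, and 10.5% of them were higher. With the members of all 36 lists left out, 41.9% of 1215 genes with both and 9.85% of 6384 with neither were higher.

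Protein length did not order the fold changes as hydropathy did. Across the 11241 genes Spearman's rho with the log2 fold change was 0.22 for the 19-residue value, 0.15 for the N-terminal value, 0.15 for GC content of the transcript, -0.07 for the number of exons and 0.02 for protein length; genes are not independent replicates, and all values come from the same 8 libraries. Longer proteins were more often called in both directions, with 10.9% higher and 11.5% lower among proteins of 24 to 259 residues, and 22.3% and 20.3% among those of 848 residues or more. Among genes without a 19-residue window of at least 1.6, the share called higher was 4.9% in the shortest and 19% in the longest of 5 equal groups.

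**Figure D3:**
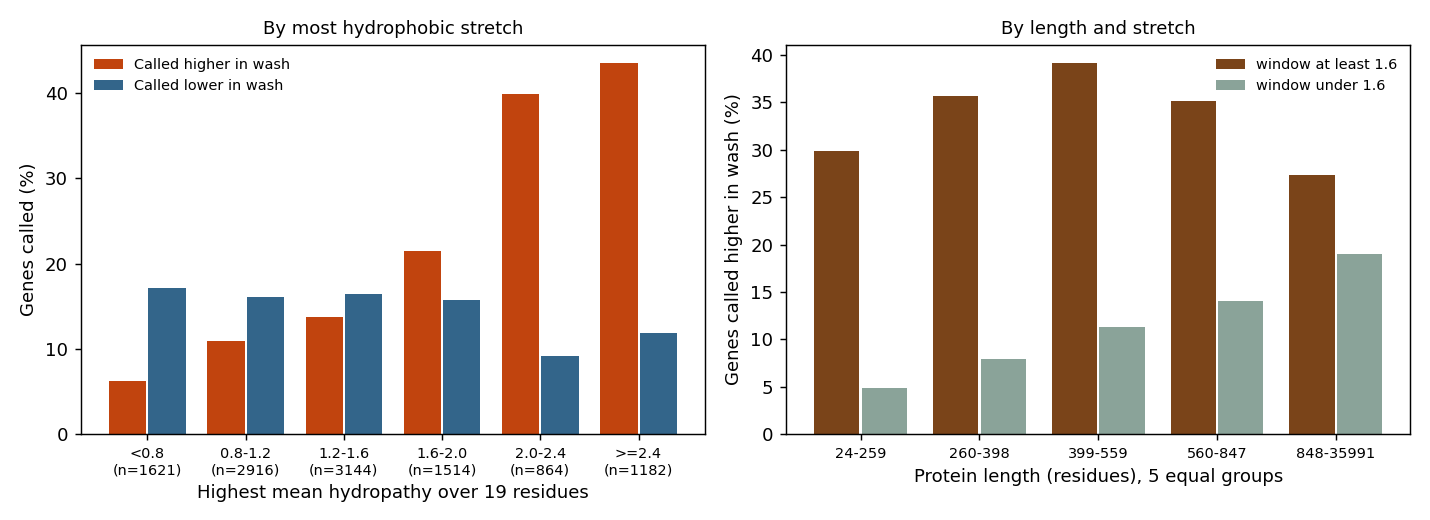
Left, percent of coding genes called higher (orange) or lower (blue) in the wash, by the highest mean hydropathy over 19 residues, with the number of genes under each pair; right, percent called higher in 5 groups of protein length, for genes with (brown) and without (grey-green) a window of at least 1.6. The share called higher goes from 6.29% in the lowest hydropathy group to 43.5% in the highest, and is higher with such a window in every length group.

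Lists of mRNAs for proteins of the cytosol had medians nearer to that of all genes than the reticulum lists had. Members were called in both directions in these lists, except the glycolytic enzymes and the aminoacyl-tRNA synthetases, which had 0 lower. ACTB, cytoplasmic actin, was at 1421, 1384, 1312 and 1352 CPM in the whole cell and 2171, 2304, 2402 and 2198 CPM in the wash (0.73, SE 0.099, adjusted p = 9.62e-06), with 2630 CPM in the cytoplasm. GAPDH, a glycolytic enzyme, was at 940.3 ± 121 and 1027 ± 86.9 CPM and did not pass (adjusted p = 0.426), while with gene-body counts it rose by 0.60 (adjusted p = 0.000664). Of 17 glycolytic genes, 6 were higher and 0 lower (median 0.21), among them ENO1 (0.74, SE 0.115). Of 34 actin, tubulin and small actin-binding genes, 12 were higher and 3 lower (median 0.08), among them TUBB, a tubulin (0.64, SE 0.113). Of 27 cytosolic chaperone genes, 6 were higher and 1 lower (10 and 2 with the replicate block), among them CCT3, of the chaperonin ring (0.65, SE 0.116). These rises are smaller than those of the reticulum lumen genes named above, and without the TMM factor the medians of the glycolytic, actin and chaperone lists were -0.10, -0.24 and -0.07, when that of all genes was -0.40.

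Ribosomal proteins and translation factors had the lowest medians among the lists of cytosolic proteins, with lower calls in 17.5 and 17.9% of members against 19.7% of all genes. The aminoacyl-tRNA synthetases, which charge tRNAs, had a median of 0.26, with 3 of 22 higher (8 with the replicate block) and 0 lower. Of 80 ribosomal protein genes, 1 was higher and 14 lower (median -0.26), and with the replicate block 28 were lower. RPLP0, of the ribosomal stalk, was at 656.4, 625.0, 695.0 and 797.2 CPM in the whole cell and 396.7, 434.3, 622.0 and 594.5 CPM in the wash (-0.44, SE 0.145, adjusted p = 0.0236), against 1496 CPM in the cytoplasm and 109.8 in the nucleus. The call was lost without wash replicate 1 or 2 or whole-cell replicate 4 (adjusted p 0.0675 to 0.0824). By edgeR it was also lost with no low-count filter (adjusted p = 0.0588), only the 8 libraries (0.0606) and gene-body counts (0.811). RPL12, of the large subunit, was at 218.2 ± 43.5 and 144.1 ± 35.9 CPM, and its call (adjusted p = 0.0456) was lost in 6 of the 8 fits that left out 1 library (adjusted p 0.0643 to 0.13). The call of RPL12 was also lost with DESeq2 (adjusted p = 0.0583). By edgeR it was lost with RLE size factors (0.059), gene-body counts (0.691) and within prefix 1 (0.132). FAU, a ubiquitin-like fusion with a ribosomal protein, was the member that was higher (0.71, SE 0.199), with overlapping groups. The call of FAU was lost within prefix 1 (0.26, adjusted p = 0.354) and with no composition factor (0.39, adjusted p = 0.114). Among 39 translation factors, 1 was higher, 3 with the replicate block, and 7 lower (median -0.18). TPT1, an abundant growth-related translation protein, fell by 0.78 (SE 0.143), from 417.1 ± 44.4 to 243.3 ± 21.7 CPM, but with gene-body counts by 0.30, which did not pass (adjusted p = 0.103). EIF4G1, the scaffold of cap binding, rose by 0.83 (SE 0.153). EIF4A1, the helicase of that complex, was at only 11.9 ± 3.52 and 2.81 ± 0.852 CPM; 5 other annotated genes overlap it, and its log2 fold change of -2.08 is uncertain for that reason. With gene-body counts the direction of both lists turned, to 17 higher and 0 lower with a median of 0.22 for ribosomal proteins, and 12 higher and 0 lower with a median of 0.24 for translation factors, when the median of all genes was 0.04.

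Of 44 spectrin, filamin and large actin-scaffold genes, 23 were higher and 5 lower (median 0.46). DIAPH1, a formin that builds actin filaments, was at 741.8, 751.6, 744.8 and 742.0 CPM in the whole cell and 2783, 2735, 2940 and 2574 CPM in the wash (1.89, SE 0.101, adjusted p = 1.92e-10). DBN1, an actin-bundling protein, had the largest rise of the nuclear-encoded genes named by the rule, at 95.5, 68.8, 50.6 and 72.2 CPM and at 547.9, 248.8, 284.7 and 277.8 CPM (2.25, SE 0.236, adjusted p = 4.05e-07). SPTBN1, beta spectrin, was at 230.0 ± 11.4 and 737.5 ± 142 CPM, with 42.4 CPM in the cytoplasm and 461.6 CPM in the nucleus. These 3 proteins enter no membrane, and their mRNAs were lower in the cytoplasm than in the whole cell. DST, a giant linker of the cytoskeleton, fell by 0.77 (SE 0.23, adjusted p = 0.0132), but within prefix 1 by 0.33, which did not pass, and the call was also lost without wash replicate 3 or 4 (adjusted p = 0.0524 and 0.051). With only the 8 libraries the call of DST was lost too (adjusted p = 0.0555 by edgeR).

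Of 18 genes of the nuclear lamina and inner nuclear membrane, 14 were higher and 0 lower (median 0.66). LBR, the lamin B receptor, was at 361.6 ± 73.4 and 918.8 ± 90.8 CPM (1.34, SE 0.133), and TMEM43, an inner membrane protein, at 35.4 ± 2.85 and 101.2 ± 10.5 CPM. Of 31 nuclear pore genes, 12 were higher and 1 lower, 3 with the replicate block (median 0.27). NUP210, a pore protein that spans the membrane, was at 224.4, 217.2, 214.5 and 247.1 CPM in the whole cell and 556.3, 627.3, 709.4 and 682.6 CPM in the wash (1.51, SE 0.112). TPR, the filament of the nuclear basket, was lower, and its wash libraries split by prefix into 625.1 and 448.9 against 198.5 and 240.2 CPM, with 861.4, 743.3, 623.0 and 689.3 CPM in the whole cell (-0.95, SE 0.257, adjusted p = 0.00698). Centrosome and dynein-linked genes went both ways, with 10 of 52 higher and 16 lower (median -0.09). DYNC1H1, the dynein heavy chain, rose by 1.15 (SE 0.207), CENPE, a kinetochore motor, fell by 1.51 (SE 0.283), and CEP290, of the ciliary base, fell by 1.56 (SE 0.287). PCNT, the pericentrin scaffold, was at 196.6 ± 20.7 and 243.5 ± 81.7 CPM and did not pass (adjusted p = 0.19), but passed with gene-body counts (0.41, adjusted p = 0.0443).

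Transcripts of the mitochondrial genome, which never leave the organelle, gave the highest fold changes among the genes named here. All 13 mRNAs passed the filter, and 10 were higher and 0 lower (median 0.82). MT-ND3, a complex I subunit, was at 248.0, 256.1, 313.8 and 301.9 CPM in the whole cell and 1368, 1169, 1286 and 1150 CPM in the wash (2.15, SE 0.182, adjusted p = 2.77e-08). MT-CO1, of cytochrome oxidase, was at 7930 ± 335 and 19192 ± 2599 CPM (1.28, SE 0.168). The genome is transcribed from both strands. The tRNA genes annotated on its minus strand were more often called higher, a grouping chosen after the values were seen. MT-ND6, the only mRNA of the minus strand, rose by 1.82 (SE 0.176), from 1154 ± 184 to 4083 ± 681 CPM. That is less than MT-ND3 of the plus strand, so the mRNAs did not separate by strand. Of 8 tRNA genes on the minus strand, 7 were higher and 0 lower (median 1.94), and of 11 tested on the plus strand, 4 were higher and 1 lower (median -0.43). Among those on the plus strand, MT-TM and MT-TD, chosen after their values were seen, rose by 2.03 and 1.71. Some tRNA genes of both strands lay near the floor. MT-TL1 (plus) and MT-TC (minus), chosen in the same way, were at 3.19 and 2.13 CPM in the whole cell. In the wash they were at 1.26 and 5.42 CPM. Reads over such short genes may also come from longer precursors, which exon counts cannot tell apart from the mature tRNA. The strand setting of the counting is not given, so reads over a gene may also come from the opposite strand.

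The tRNA genes with the largest rises, MT-TN (asparagine) and MT-TA (alanine), are neighbours on the minus strand of the mitochondrial genome, and their gene sequences are given to show how short the counted features are, with 73 and 69 bases at chrM:5657-5729 and chrM:5587-5655.
MT-TN: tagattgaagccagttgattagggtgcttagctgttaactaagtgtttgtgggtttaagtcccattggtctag
MT-TA: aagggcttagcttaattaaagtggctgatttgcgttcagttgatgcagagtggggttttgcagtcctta
MT-TN was at 1.124, 3.77, 3.89 and 1.81 CPM in the whole cell and 31.5, 27.1, 35.3 and 18.5 CPM in the wash (3.27, SE 0.357, adjusted p = 6.51e-07). MT-TA was at 6.63 ± 1 and 46.1 ± 9.69 CPM (2.77, SE 0.219). MT-TE (glutamate, minus strand) and MT-TK (lysine, plus strand) rose by 2.19 (SE 0.25) and 2.45 (SE 0.353). For MT-TN the undepleted wash was at 2.1 CPM, unlike MT-TA, at 44.8 CPM there.

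Nuclear-encoded mRNAs for mitochondrial proteins did not rise as a group. Of 76 oxidative phosphorylation subunits, 15 were higher and 8 lower (median 0.03), and of 73 mitochondrial ribosomal proteins, 4 were higher and 1 lower (median -0.03), 7 higher with the replicate block. SDHA, of complex II, was at 131.9, 135.9, 142.9 and 156.4 CPM in the whole cell and 259.5, 285.4, 341.5 and 306.5 CPM in the wash (1.07, SE 0.111). NDUFB9, of complex I, rose by 1.56 (SE 0.21), with wash libraries from 342.5 to 940.3 CPM. ALDH18A1, a mitochondrial enzyme of proline synthesis, was in no list and had one of the largest rises among coding genes that overlap no other gene, from 65 ± 7.75 to 260 ± 18 CPM (2.00, SE 0.118). Within prefix 1 the oxidative phosphorylation list had 7 higher and a median of -0.20, below that of all genes, -0.15.

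Nuclear long noncoding RNAs were called lower in the wash more often than all genes were, but not all of them fell. Of 20 identifiers of nuclear long noncoding RNAs, 1 was higher and 11 lower (median -0.67). KCNQ1OT1, the antisense RNA of an imprinted domain, was at 200.4, 261.4, 172.8 and 164.1 CPM in the whole cell and 79.05, 77.4, 35.8 and 44.0 CPM in the wash (-1.77, SE 0.251, adjusted p = 1.67e-05), against 507.7 CPM in the nucleus and 16.4 CPM in the cytoplasm. PURPL, a long intergenic RNA, fell by 1.63 (SE 0.256), and THRIL, a long noncoding RNA, rose by 0.88 (SE 0.143). NEAT1, the scaffold of paraspeckles, was at 730.8 ± 107 and 709.7 ± 80.6 CPM (adjusted p = 0.816), and with gene-body counts NEAT1 rose by 0.43 (adjusted p = 0.00544). MALAT1, the RNA of nuclear speckles, was at 20869, 22091, 24275 and 20530 CPM in the whole cell and 21423, 15651, 5006 and 4753 CPM in the wash. Its call (-0.91, SE 0.326, adjusted p = 0.0362) was lost without wash replicate 3 or 4 or whole-cell replicate 2 or 3 (adjusted p 0.0625 to 0.112), and the log2 fold change was -0.22 within prefix 1 (adjusted p = 0.369). The call of MALAT1 was also lost with DESeq2 (adjusted p = 0.0755). By edgeR it was lost with RLE size factors (adjusted p = 0.0576), only the 8 libraries (0.141) and gene-body counts (0.281). Neither MALAT1 nor NEAT1 had non-overlapping groups.

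Several other noncoding classes had larger shares of lower genes than the 19.7% of all genes. Among annotated classes, 34.5% of 634 lincRNAs, 42.9% of 224 sense intronic RNAs, 32.8% of 989 processed pseudogenes and 44.4% of 214 genes of the class awaiting experimental evidence (TEC) were called lower, and 7.26, 1.34, 2.02 and 5.61% higher. The 1481 antisense genes were near the background, with 21% lower and 10.2% higher. Genes of these classes could pass the filter through their level in the nucleus, since it used all 16 depleted libraries. The class shares were not computed with only the 8 libraries of the comparison. For the 11310 protein-coding genes the shares were 15.3% lower and 18.2% higher. RNY1, a small Y RNA of the cytoplasm, was at 9.06 ± 3.47 CPM in the whole cell and 1.30 ± 0.902 CPM in the wash (-2.76, SE 0.516), and at 0.0676 CPM in the nucleus. GAS5, a host gene of small nucleolar RNAs, fell by 1.09 (SE 0.189) and was at 854.9 CPM in the nucleus, while 6 of 22 such host genes were higher and 3 lower, 5 with the replicate block.

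Among lists of mRNAs for nuclear proteins, that of zinc finger factors had the lowest median. Of 97 zinc finger genes, 2 were higher and 27 lower (median -0.31), and 5 were higher with the replicate block. ZNF33B was at 59.2, 60.9, 75.7 and 75.6 CPM in the whole cell and 31.1, 33.0, 27.5 and 26.7 CPM in the wash (-1.2, SE 0.171, adjusted p = 1.62e-05), and ZNF217 rose by 0.53 (SE 0.132), a call lost with no composition factor (0.22, adjusted p = 0.216). Within prefix 1, 12 zinc finger genes were lower, and within prefix 2, 44. Of 42 genes of SR splicing factors and their kinases, 6 were higher and 9 lower (14.3 and 21.4%), near the shares of all genes. NKTR, a cyclophilin with arginine-serine repeats, fell by 1.44 (SE 0.231), and SRRM1, a splicing coactivator, rose by 1.03 (SE 0.184). Of 29 heterogeneous nuclear ribonucleoproteins, 12 were higher and 1 lower, 2 with the replicate block, with HNRNPK at 497.6 ± 38.1 and 837.3 ± 177 CPM. Of 43 immediate early and short-lived mRNAs, 9 were higher and 1 lower, and 19 higher with the replicate block. JUN, a transcription factor of the early response, was at 21.7 ± 4.83 and 42.7 ± 14.7 CPM (adjusted p = 0.0083), with overlapping groups, and did not pass within prefix 1 (0.68, adjusted p = 0.0568).

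The genes that fell most among coding genes that overlap no other gene were PGGHG, ANKRD36 and ANKRD36C. PGGHG, a glucosidase of hydroxylysine-linked sugars, was at 34.1, 27.2, 22.1 and 28.7 CPM in the whole cell and 4.03, 2.94, 4.79 and 5.90 CPM in the wash (-2.65, SE 0.216), with 53.0 CPM in the nucleus and 5.10 CPM in the cytoplasm. ANKRD36 and ANKRD36C, close copies whose reads may be shared, fell by 2.13 (SE 0.244) and 2.06 (SE 0.32), and were at 254.4 and 324.0 CPM in the nucleus. RBM41, an RNA-binding protein, fell by 1.57 (SE 0.182), from 101.5 ± 2.92 to 34.4 ± 11.9 CPM. Of all genes that the rule takes, ATXN3L had the lowest log2 fold change, -2.8 (SE 0.261), from 43.9 ± 5.02 to 6.48 ± 2.2 CPM; another annotated gene overlaps it. Among higher genes of no list, DLK1, a surface ligand, was at 3.37, 2.38, 6.85 and 9.05 CPM in the whole cell and 13.9, 13.6, 38.7 and 30.3 CPM in the wash, MYADM, a membrane protein, rose by 2.10 (SE 0.127), and ECM1, a secreted protein, by 1.91 (SE 0.184).

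Of 49 erythroid and megakaryocytic genes, 14 were higher and 1 lower (median 0.16), and 6 lower with the replicate block. RHAG, a channel of the red cell membrane, was at 172.6 ± 8.63 and 492.5 ± 64.3 CPM (1.51, SE 0.129). TFRC, the transferrin receptor, was at 763.9, 935.5, 626.8 and 516.4 CPM in the whole cell and 1489, 1784, 1067 and 913.6 CPM in the wash; its groups overlapped, and each wash library was above the whole-cell library of the same number (0.89, SE 0.225, adjusted p = 0.00439). FTL, the ferritin light chain of the cytosol, fell by 0.40 (SE 0.116, adjusted p = 0.0109), and within prefix 2 by 0.29, which did not pass (adjusted p = 0.0558). With gene-body counts FTL was at 0.08 (adjusted p = 0.581), and with no low-count filter its call was lost (adjusted p = 0.122).

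**Figure D4:**
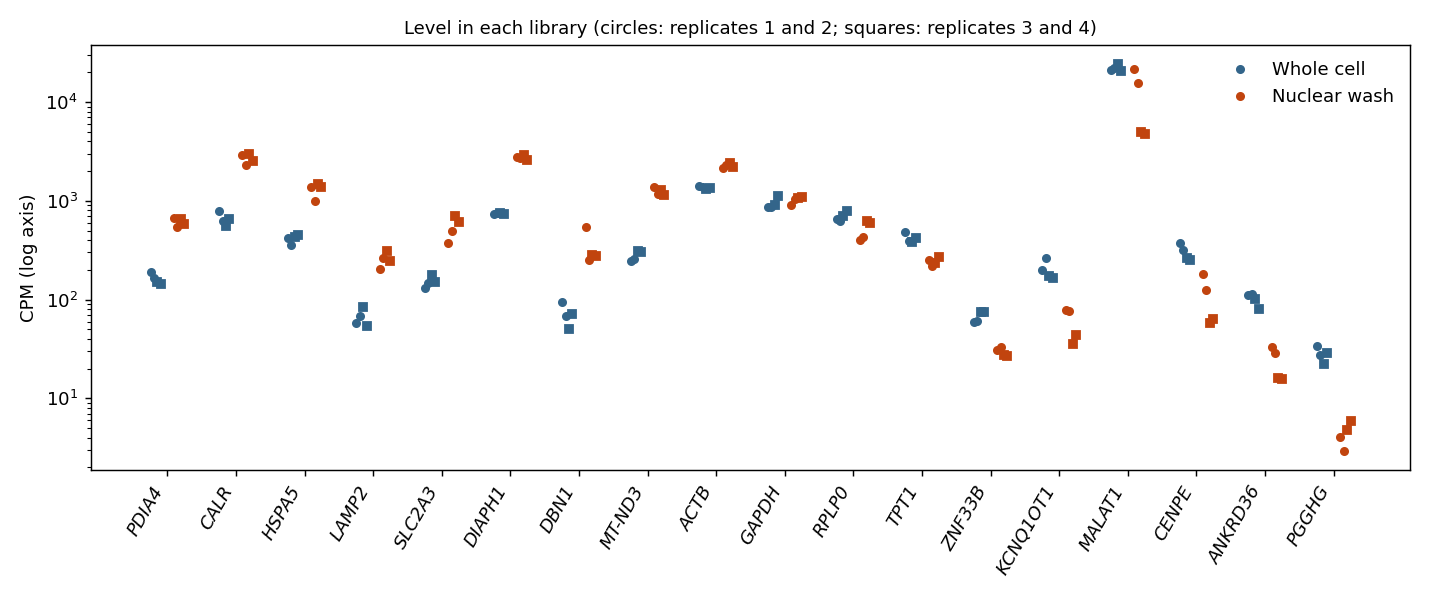
Level in CPM (log y axis) of 18 genes in each of the 4 whole-cell libraries (blue) and 4 nuclear wash libraries (orange), with circles for replicates 1 and 2 and squares for replicates 3 and 4. The reticulum, lysosomal and scaffold genes are higher in every wash library, and MALAT1 and CENPE lie lower in wash replicates 3 and 4 than in wash replicates 1 and 2.

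The comparison gave different values in the column prefixes for a small set of genes. The difference in log2 fold change between the prefixes passed for 112 of 15940 genes (0.703%), lower in prefix 2 for 101 and higher for 11. Among the coding genes with a complete coding sequence, 95 were lower in prefix 2 and 9 higher, and the proteins of the 95 had a median length of 1844 residues, against 475 for all 11241 such genes. Their transcripts also had a median GC content of 39.5% against 48.8%, and a median of 26 exons against 9. Of these 95 genes, 85, out of 2246 tested in that length group, had proteins of 848 residues or more, the longest of the 5 groups. RANBP2, a giant pore protein chosen after its values were seen, was at 574.2 and 594.1 CPM in wash replicates 1 and 2 and 163.6 and 163.4 CPM in replicates 3 and 4, when the whole-cell libraries were at 583.7, 642.3, 476.1 and 430.6 CPM. ASPM, a long spindle protein chosen in the same way, was at 759.1, 725.1, 224.2 and 226.1 CPM in the wash and 725.7, 814.9, 590.5 and 490.8 CPM in the whole cell. The falls of GOLGA4, CEP290, TPR, DST, NKTR and MALAT1 given above also differed with the prefix. Over that length group as a whole the median was 0.03 within prefix 1 and -0.04 within prefix 2. What the prefix stands for in these libraries was not tested.

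**Figure D5:**
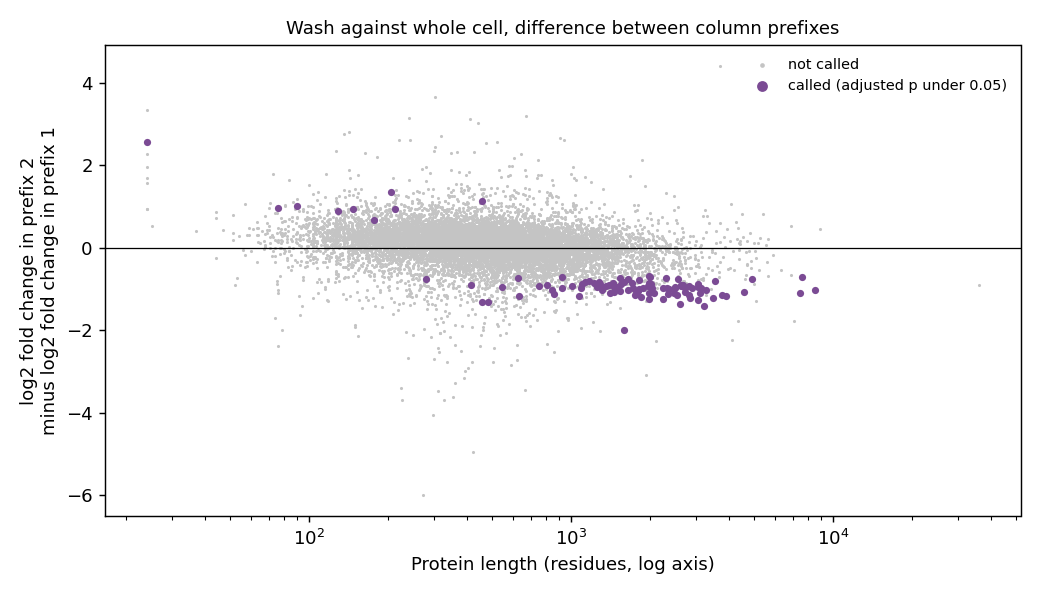
For each tested coding gene, the log2 fold change of wash over whole cell in prefix 2 minus that in prefix 1 (y axis) against protein length in residues (log x axis), with purple for genes whose difference passed at an adjusted p under 0.05. Of the purple points, 95 lie below 0, with a median protein length of 1844 residues, and 9 lie above 0.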

How the data were processed

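Total RNA of K562 fractions was sequenced with synthetic yeast spike-ins, per the labels' protocols. The authors deposited raw read counts per gene over exons and over gene bodies; the submitters' processing notes name hg38, cutadapt 2.5, STAR 2.7.0a and featureCounts 1.6.2. The annotation release, strand setting and treatment of shared reads: not given in the sources used here. Symbols and coding sequences came from GENCODE 29 on GRCh38, which held 57447 of 58051 identifiers.

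The 16 rRNA-depleted libraries were fitted together in edgeR 4.0.16 (R 4.3.3) with a term per fraction, TMM scaling, filterByExpr and the quasi-likelihood test, with Benjamini-Hochberg adjustment over all genes and a threshold of 0.05. DESeq2 1.42.0 was an alternative. The fit was tested on simulated data. Shares were compared by exact permutation. Deviations of same-numbered wash and whole-cell libraries from their group means correlated at 0.42, 0.616, 0.301 and 0.568 over 9000 genes. Wash replicate 3 correlated more with whole-cell replicate 4 (0.464), of the same prefix, so its pairing by number is uncertain. The numbers were taken as pairs in the blocked fit and the paired permutation test, which were alternatives. The main fit had no term for them. A fit of intronic counts per gene was not used, because gene-body counts fell below exon counts in 5.26% of genes with at least 50 exon counts, above the limit of 5% set for it.

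Named genes were the 8 called genes with the largest change each way whose groups did not overlap and whose mean reached 10 CPM, the same for coding genes that overlap no other gene, up to 2 members per list in the direction of its median and 1 the other way at 5 CPM or more, and fixed landmarks; 1 gene that this rule takes is not reported here. Members and lists were chosen with earlier results of these data known. Other alternatives were other scalings and filters, gene-body counts, fewer libraries and each prefix alone.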

Additional observations from a re-analysis of the deposited data

Results flagged for a closer look

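In 12 of 176 groups of 4 libraries tested, 1 library stood far from the other 3 by Dixon's test, and chance alone gives about 1 in 20. DBN1 was at 547.9 CPM in wash replicate 1 (others 249 to 285). RPN2 was at 573.3 CPM in wash replicate 3 (497 to 500) and 167.4 CPM in whole-cell replicate 2 (156 to 158). EMC2 was at 31.59 CPM and COL1A2 at 34.53 CPM in wash replicate 2. GANAB was at 138 CPM and GAPDH at 1120 CPM in whole-cell replicate 4. RNY1 was at 2.646 CPM in wash replicate 4 and 14.26 CPM in whole-cell replicate 4. HNRNPK was at 554.5 CPM in whole-cell replicate 1. The share of mitochondrially encoded mRNAs was 6.414% in wash replicate 2 and 4.763% in whole-cell replicate 4.

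For 7 named genes the log2 fold change differed between the column prefixes by edgeR's test of the difference, given here as prefix 2 minus prefix 1 with its adjusted p. The differences were -1.246 for GOLGA4 (0.0208), -1.088 for DST (0.00822), -0.9626 for CEP290 (0.0281), -0.9987 for TPR (0.0174), -1.986 for MALAT1 (1.41e-05), -1.068 for NKTR (0.00115) and -0.8996 for RBM41 (0.0301). All 7 were lower in prefix 2.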

How the results depend on the processing

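The main counts of 2335 higher and 3142 lower genes became 2864 and 3868 with the replicate numbers as a block, which made the call of 1 of the 82 named genes (GATA1) and changed no other named gene's call. They ranged from 1887 to 2375 higher and 2448 to 3126 lower when 1 library was left out. DESeq2 gave 2485 and 2832, RLE size factors 2500 and 2943, no low-count filter 2561 and 2781, and prefix 2 alone 2566 and 3342. Larger moves came with gene-body counts (4341 higher), with no composition factor (1185 higher, 6245 lower), with only the 8 libraries (1833 lower), within prefix 1 (1532 higher, 1952 lower) and with spike-in library sizes (0 higher by edgeR, also 0 at an unadjusted p under 0.05, and 15923 lower). The part of the calls that was higher was 42.6%, and 53.2% with gene-body counts, 15.9% with no composition factor, 54.7% with only the 8 libraries and 0% with spike-in sizes. The median of all genes moved by 0.15, -0.30, 0.11 and -4.41 under the same settings. With gene-body counts the share differences were 3.711 points for mitochondrial mRNAs (adjusted p = 0.0714), 0.0994 for ribosomal protein mRNAs (0.686), 2.453 for reticulum and membrane mRNAs (0.0714), -0.5609 for nuclear long noncoding RNAs (0.214) and -0.0484 for zinc finger mRNAs (0.143), each by exact permutation test. The paired exact permutation test of each share gave p = 0.125, the smallest that 4 pairs allow, so it could not pass. The cause of these moves was not tested.

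Apart from spike-in sizes, the sign changed for PCNT (-0.01121) and GAPDH (-0.1777) with no composition factor, and for RPLP0 (0.049) and FTL (0.08167) with gene-body counts. It changed for NEAT1 with gene-body counts (0.4349), no low-count filter (0.02831) and within prefix 1 (0.1639), and ranged from -0.1622 to 0.0371 when 1 library was left out. It changed for HBG1 with gene-body counts (-0.1781), no composition factor (-0.2122) and within prefix 1 (-0.06711), and ranged from -0.02842 to 0.1941 when 1 library was left out. With spike-in library sizes, 55 named genes above 0 turned to MT-TN -1.098, MT-TA -1.659, MT-TK -1.945, MT-TE -2.217, MT-ND3 -2.268, MT-ND6 -2.636, MT-CO1 -3.161, DBN1 -2.144, DLK1 -2.384, MYADM -2.319, ALDH18A1 -2.401, LAMP2 -2.452, PDIA4 -2.487. Further values with those sizes were ECM1 -2.526, CALR -2.385, HSPA5 -2.789, MAGT1 -2.621, RPN2 -2.719, GANAB -2.778, APLP2 -2.586, F2R -2.603, SLC2A1 -2.716, SLC2A3 -2.597, SOAT1 -2.821, DHCR7 -3.001, HMGCS1 -3.805, ARCN1 -3.712. Further values with those sizes were DIAPH1 -2.519, SPTBN1 -2.726, PCNT -4.108, DYNC1H1 -3.23, TMEM43 -2.905, LBR -3.04, NUP210 -2.916, FAU -3.772, EIF4G1 -3.561, ACTB -3.676, TUBB -3.782, GAPDH -4.303, ENO1 -3.685, CCT3 -3.751. Further values with those sizes were NDUFB9 -2.945, SDHA -3.359, THRIL -3.505, SRRM1 -3.325, ZNF217 -3.906, JUN -3.514, RHAG -2.913, TFRC -3.439, GATA1 -4.107, HBG1 -4.3, LYZ -2.544, EPCAM -2.918, COL1A2 -2.353, HNRNPK -3.655. The effect of depth was not tested. The 5 alternatives for a fit of intronic counts per gene were not run, since that fit was not used.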
